A study of Mus musculus with 2 samples.

Results

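The 10 genes described here encode the signalling cascade with which ON bipolar cells of the retina answer light: Grm6, Trpm1, Nyx, Gpr179, Rgs7, Rgs11, Gng13, Gnb3, Gnao1 and Pcp2. They were taken by symbol from the 32285 genes of the count matrices, and all 10 were present in both libraries. Photoreceptors release glutamate in darkness and release less of it in light. ON bipolar cells read this signal through the metabotropic receptor mGluR6, which through a G protein keeps the cation channel TRPM1 shut, so that the cell depolarises when glutamate falls. OFF bipolar cells answer the same transmitter with ionotropic receptors and depolarise in darkness. Rod bipolar cells are the ON bipolar cells of the rod pathway, and the ON and OFF cone bipolar cells each comprise several types.

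The cells came from retinas of mice aged 14 weeks, on the B6.Cg background with the allele Gt(ROSA)26Sortm9(CAG-tdTomato)Hze/J, a Cre-dependent tdTomato reporter that all animals shared. An adeno-associated virus had been injected 8 weeks earlier, and tdTomato-positive cells were collected by fluorescence-activated sorting and profiled as 1 droplet library labelled Muller and 1 labelled MullerControl. Muller was read as the group given the test virus, from the other label. Neither the cargo and promoter of the viruses nor the number of mice pooled is given in the sources used here. Of the kept cells, 1219 in Muller and 727 in MullerControl were Müller-like, so neither library is a pure Müller glia sample. With 1 library per group no test between groups was possible, and every interval below is a 95% interval for counting error alone.

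The Muller library held 12316 cell barcodes with 25622379 unique molecular identifiers (UMIs, each marking 1 captured transcript), and the MullerControl library held 11309 barcodes with 23549118 UMIs. After filtering, 10757 and 9538 cells were kept, and 30 kept barcodes occurred in both libraries. Cells were clustered without the 10 genes, and bipolar clusters were named by rod bipolar markers and by whether Isl1 or Grik1 was higher, a rule written after the levels of the 10 genes in the clusters had been seen. This gave 685 and 159 rod bipolar-like cells, 1920 and 557 ON cone bipolar-like cells, and 535 and 200 OFF cone bipolar-like cells in the Muller and MullerControl libraries. Their median depths were 4091 and 5850, 2706.5 and 3138, and 2147 and 3912.5 UMIs. The markers that follow served in the naming, so their levels only describe the classes. Prkca, the protein kinase C of rod bipolar cells, had 1448 and 1879 CPM (its share of all UMIs of the class, scaled to the same total in every class) in rod bipolar-like cells, against 30.4 and 10.3 CPM in OFF cone bipolar-like cells. Grik1, a kainate receptor subunit of OFF cells, had 1456 and 1509 CPM in OFF cone bipolar-like cells, and 12.8 and 10.7 CPM in ON cone bipolar-like cells. A cluster of 39 and 52 shallow cells could not be assigned to a bipolar class and entered none of the 3.

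The upstream sequences of the receptor gene and the channel gene are shown because the results turn on these 2 genes. Each runs from 250 bases before to 50 bases after the RefSeq start, 5′ to 3′ on the gene's strand, in build GRCm38.p6. Grm6 lies on the plus strand, with the window at chr11:50850435-50850734. Trpm1 also lies on the plus strand, with the window of its first listed start at chr7:64153585-64153884. Capitals mark the letters TAATCC read on either strand, the core recognised by the photoreceptor and bipolar factors CRX and OTX2.
Grm6: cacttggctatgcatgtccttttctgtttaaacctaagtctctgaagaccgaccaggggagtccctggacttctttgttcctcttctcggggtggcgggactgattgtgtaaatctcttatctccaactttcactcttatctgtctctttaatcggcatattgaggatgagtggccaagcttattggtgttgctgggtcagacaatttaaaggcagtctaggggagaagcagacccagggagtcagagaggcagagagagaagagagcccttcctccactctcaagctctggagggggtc
Trpm1: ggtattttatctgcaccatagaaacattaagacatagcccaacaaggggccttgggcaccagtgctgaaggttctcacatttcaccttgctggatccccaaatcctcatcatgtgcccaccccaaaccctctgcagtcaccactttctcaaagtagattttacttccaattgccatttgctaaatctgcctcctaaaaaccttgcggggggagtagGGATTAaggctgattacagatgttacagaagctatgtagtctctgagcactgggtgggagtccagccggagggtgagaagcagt
The match in Trpm1 begins 34 bases before the start, and the window of the other listed Trpm1 start, not shown, held no match. Of the 10 genes, 8 had windows in the RefSeq table, 13 windows in all, and 1 of these 13 held TAATCC or its reverse complement GGATTA, against 7.06% of the 32851 windows of all genes. The palindrome TAATTA, a letter pattern of paired-type homeodomain factors, was likewise found in 1 of the 13, a start of Pcp2, against 5.29% of all windows. These matches describe letters only, and neither pattern was common to the members. In GRCm38, Grm6 spans positions 50850685 to 50866208 of chromosome 11 and Trpm1 positions 64153835 to 64269775 of chromosome 7.

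Among the bipolar classes, most of the 10 genes were higher in the 2 ON classes than in the OFF cone class of both libraries. Outside them, Gnb3 was higher still in cone-like cells, at 197% and 206% of the combined ON level in Muller and MullerControl. All 10 genes were at least 2-fold higher in rod bipolar-like than in OFF cone bipolar-like cells in each library, while 4.26% of the 8376 genes measured reached that size in both. The median log2 ratio of the 10 genes was 2.43 in Muller and 2.67 in MullerControl, and that of all genes was -0.29 and -0.27. In ON cone bipolar-like over OFF cone bipolar-like cells, 8 of the 10 reached 2-fold in both libraries, beside 3.19% of all genes. The exceptions were Rgs7 and Rgs11. The genes were chosen as known ON bipolar genes, so these levels are a description.

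These counts depend on how the cone bipolar classes were named. With each bipolar cluster named instead by the list with the most raised markers, an alternative added after the data were seen, 6 of the 10 genes reached 2-fold in both libraries in rod bipolar-like over OFF cone bipolar-like cells, and 2 did so in ON cone over OFF cone bipolar-like cells. The shares of all genes under that naming were not computed, so these 2 counts cannot be set against them. That naming left 864 and 256 bipolar cells of the Muller and MullerControl libraries unassigned and put the clusters led by Cck and Tnnt1 and by Grin3a and Trank1 with the OFF cone cells, through markers such as Vsx1 and Lhx3. The Cck/Tnnt1 cluster had 1333 and 1131 CPM of Isl1, the LIM homeobox gene of ON bipolar cells, and 17.5 and 11 CPM of Grik1. The Grin3a/Trank1 cluster had 1301 and 1399 CPM of Isl1 and 23.1 and 30.8 CPM of Grik1.

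Grm6 encodes mGluR6, the glutamate receptor that starts the cascade. In rod bipolar-like cells it had 439 CPM (412 to 466) in Muller and 582 CPM (531 to 636) in MullerControl. In ON cone bipolar-like cells its level was 565 and 620 CPM, and in OFF cone bipolar-like cells 42.7 and 32.3 CPM. The ON cone cells were therefore 13.0-fold and 18.5-fold above the OFF cone cells, and the counting intervals of these 2 cone classes did not overlap. Rod bipolar-like and ON cone bipolar-like cells lay within 1.5-fold of each other for this gene, with log2 ratios of -0.36 (-0.47 to -0.26) for Muller and -0.09 (-0.25 to 0.06) for MullerControl.

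Trpm1 encodes the channel at the end of the cascade. It had 3381 and 3620 CPM in rod bipolar-like cells, 1284 and 1377 CPM in ON cone bipolar-like cells, and 299 and 283 CPM in OFF cone bipolar-like cells of the Muller and MullerControl libraries. The order of the 3 classes was the same in both libraries and no neighbouring intervals overlapped. Rod bipolar-like cells stood 2.63-fold above ON cone bipolar-like cells in each library. Receptor and channel thus did not scale together between the 2 ON classes, since Grm6 was at least as high in the cone class as in the rod class.

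Nyx and Gpr179 belong to the scaffold around the receptor. Nyx encodes nyctalopin, a leucine-rich repeat protein that holds TRPM1 at the synapse, and Gpr179 encodes an orphan receptor that anchors the RGS proteins. Nyx was the 1 member lower in the rod class by at least 2-fold in both libraries, at 76.5 and 77.1 CPM in rod bipolar-like cells and 195 and 177 CPM in ON cone bipolar-like cells, where 9.8% of all genes were lower by that size. Its OFF cone level was 20.3 and 25.8 CPM. Gpr179 had 375 and 544 CPM in rod bipolar-like cells, 268 and 352 CPM in ON cone bipolar-like cells, and 29.0 and 42.6 CPM in OFF cone bipolar-like cells.

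Rgs7 and Rgs11 encode GTPase-accelerating proteins that switch the G protein off. Rgs7 had 201 and 247 CPM in rod bipolar-like cells, 67.8 and 74.6 CPM in ON cone bipolar-like cells, and 60.9 and 82.7 CPM in OFF cone bipolar-like cells. It therefore set the rod class apart but not ON from OFF cone cells, with log2 ratios of 0.14 (-0.19 to 0.51) and -0.16 (-0.58 to 0.30). Rgs11 had 270 and 295 CPM in rod bipolar-like cells, 209 and 223 CPM in ON cone bipolar-like cells, and 115 and 78.8 CPM in OFF cone bipolar-like cells. Its ON over OFF cone ratio was 1.80-fold in Muller and 2.80-fold in MullerControl, so it reached 2-fold in MullerControl alone.

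Gnao1, Gnb3 and Gng13 encode the alpha, beta and gamma subunits of the G protein, and Pcp2 encodes a modulator of Go proteins that marks rod bipolar cells and several ON cone types. Gnao1 had 1489 and 1535 CPM in rod bipolar-like cells, 871 and 762 CPM in ON cone bipolar-like cells, and 288 and 304 CPM in OFF cone bipolar-like cells. Gnb3 was nearly level between the ON classes, with 1896 and 1757 CPM in rod bipolar-like cells and 1853 and 1638 CPM in ON cone bipolar-like cells, against 337 and 329 CPM in OFF cone bipolar-like cells. Gng13 had 3437 and 4396 CPM in rod bipolar-like cells, 2365 and 2484 CPM in ON cone bipolar-like cells, and 673 and 575 CPM in OFF cone bipolar-like cells. Pcp2 showed the steepest step between the ON classes. It had 13015 and 13206 CPM in rod bipolar-like cells, 3216 and 2283 CPM in ON cone bipolar-like cells, and 558 and 788 CPM in OFF cone bipolar-like cells. Pcp2, Trpm1 and Rgs7 were the 3 members at least 2-fold higher in the rod class than in the ON cone class of both libraries, beside 3.08% of all genes. Gnao1 was 1.71-fold higher in Muller and 2.02-fold in MullerControl.

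**Figure D1:**
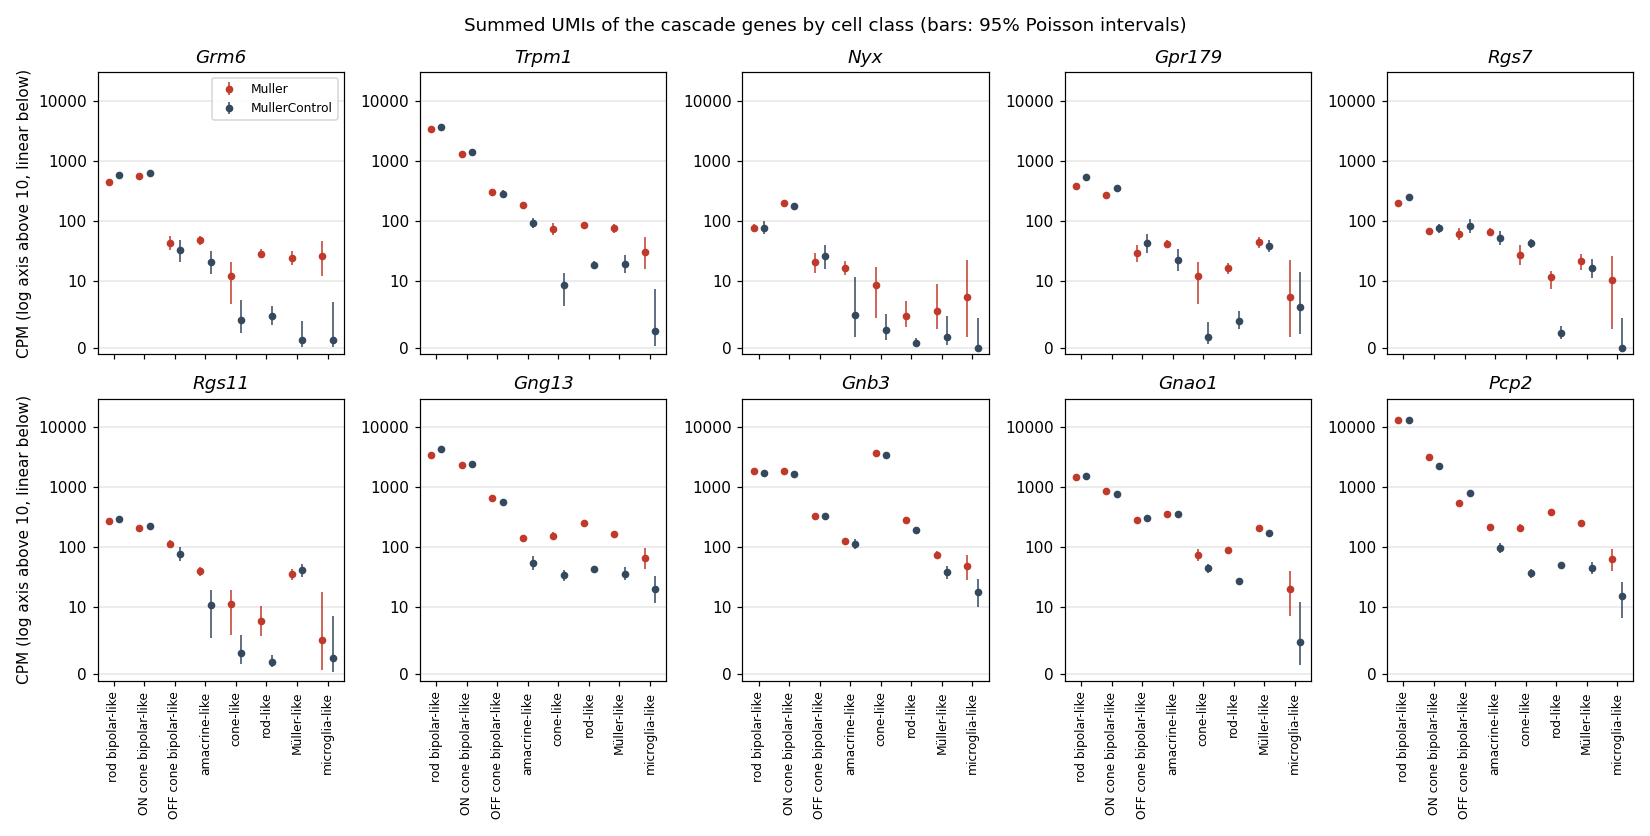
Level of each of the 10 genes by cell class in the Muller (red) and MullerControl (dark) libraries, as CPM on a scale that is logarithmic above 10 and linear below, with 95% Poisson intervals. The 2 ON bipolar classes stand above the OFF class except for Rgs7 in ON cone cells, Gnb3 has its highest level in cone-like cells, and the red points lie above the dark ones for most genes in rod-like cells.

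Per cell, the cascade was read as the number of the 10 genes with at least 1 UMI after each cell had been thinned to 1000 UMIs. The mean was 5.58 genes in 642 rod bipolar-like cells of Muller and 5.89 genes in 151 of MullerControl. In ON cone bipolar-like cells it was 4.50 and 4.28 genes, and in OFF cone bipolar-like cells 1.65 and 1.41 genes. Rod-like cells gave 0.806 and 0.267 genes at this depth, which is the reading in a class that should lack most of the cascade. At least 3 genes were found in 99.4% and 100% of rod bipolar-like cells, 93.3% and 90.9% of ON cone bipolar-like cells, 20.9% and 13.0% of OFF cone bipolar-like cells, and 3.48% and 0.161% of rod-like cells. Thinning left out 43 and 8 rod bipolar-like, 162 and 29 ON cone bipolar-like, 52 and 7 OFF cone bipolar-like and 2433 and 2070 rod-like cells that were too shallow. Without thinning the mean was 7.35 and 8.34 genes in rod bipolar-like, 6.24 and 6.41 in ON cone bipolar-like, 2.85 and 3.26 in OFF cone bipolar-like and 1.07 and 0.402 in rod-like cells.

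At 1000 UMIs, single genes were seen in very different shares of the same cells. Trpm1 was found in 95.8% and 96.7% of rod bipolar-like cells, and in 6.53% and 1.77% of rod-like cells. Grm6 was found in 40.2% and 55.6% of rod bipolar-like cells, and in 2.02% and 0.482% of rod-like cells. Nyx was found in 6.23% and 9.27% of rod bipolar-like cells, so most cells gave no Nyx UMI although the class stood at 76.5 and 77.1 CPM and rod-like cells at 4.73 and 0.639 CPM.

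**Figure D2:**
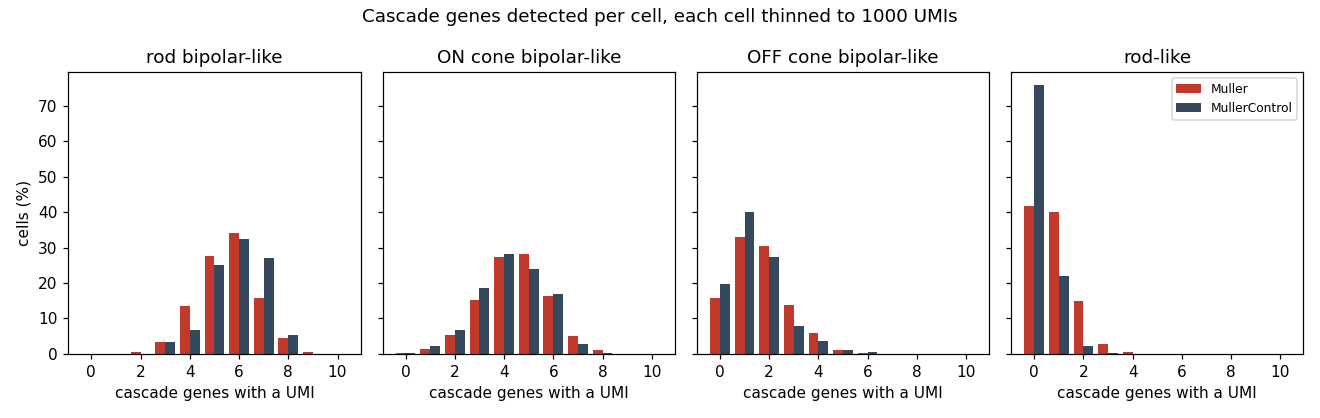
Share of cells (percent) by the number of the 10 genes detected, in 4 classes, with each cell thinned to 1000 UMIs and Muller bars (red) left of MullerControl bars (dark). Most rod bipolar-like cells have 4 or more of the genes and most rod-like cells have none or 1.

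Within the bipolar classes the receptor and the channel came apart in 2 small clusters of ON cone bipolar-like cells. The 18 bipolar clusters comprised 3 rod, 10 ON cone and 4 OFF cone clusters and the unassigned one, and each is called here by its leading genes, as the Irx3/Lrrtm1 cluster. One of them, led by Irx3, a homeobox gene, and Lrrtm1, a synaptic adhesion gene and naming marker of ON cone cells, held 35 and 38 cells. It had Isl1 at 1104 and 1106 CPM, and no Grik1 UMI in either library. Its Grm6 level was 19.7 CPM (2.39 to 71.2, from 2 UMIs) in Muller and 0 CPM in MullerControl, where a count of 0 allows up to 19.8 CPM by the limit of 3 counts. The other ON cone bipolar-like cells had 575 and 672 CPM of Grm6. Those are 29.2-fold (8.06 to 241) above the cluster in Muller, and at least 34.0-fold in MullerControl by the same limit.

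The other members were detected in these cells, several at lower levels than in the other ON cone bipolar-like cells. Trpm1 had 552 and 606 CPM in the Irx3/Lrrtm1 cluster, against 1297 and 1441 CPM in the others. Trpm1 was found in 68.6% and 86.8% of its cells. Rgs11 had 29.6 and 52.7 CPM against 212 and 238 CPM, Pcp2 1065 and 803 CPM against 3255 and 2407 CPM, and Gnb3 680 and 1001 CPM against 1874 and 1692 CPM. For these 4 genes the intervals of the ratio to the other cells excluded 1 in both libraries, as they did for Gng13 and Gnao1, which were 1.33-fold to 1.65-fold lower. Nyx, at 138 and 158 CPM against 196 and 179 CPM, and Gpr179, at 355 and 303 CPM against 267 and 356 CPM, had intervals that included no difference. Rgs7, the other RGS gene of the cascade, had 98.6 and 198 CPM against 67.2 and 64.4 CPM. The 2 RGS genes thus lay on opposite sides of the other ON cone cells here, with an interval for Rgs7 that includes no difference in the Muller library. The Grm6 value of the Muller library did not exceed the 28.4 CPM found in rod-like cells of that library.

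A second cluster, led by Gas1, a growth-arrest gene, and Brinp3, was low in the channel gene and not in the receptor gene to that extent. Its ON cone name rests on the rule of Isl1 above Grik1. Over the other bipolar cells it raised only the ON cone marker Chrm2 and the OFF cone marker Pcdh17 of the 3 bipolar lists. Naming by marker counts alone therefore left this cluster unassigned. It held 48 and 55 cells and had 583 and 401 CPM of Grm6, against 564 and 647 CPM in the other ON cone bipolar-like cells. The others were thus 0.969-fold (0.801 to 1.18) its Grm6 level in Muller and 1.61-fold (1.30 to 2.03) in MullerControl. Trpm1 was at 289 CPM (217 to 376) in Muller and at 18.6 CPM (5.08 to 47.7, from 4 UMIs) in MullerControl, against 1318 and 1543 CPM in the other ON cone bipolar-like cells. These cells were thus 4.57-fold (3.50 to 6.07) and 82.8-fold (32.3 to 304) below the others for the channel gene. Among those others, the cluster led by Areg and Slitrk5 was also low in Trpm1, at 380 and 313 CPM. Rod-like cells had 85.8 and 18.6 CPM of Trpm1, so the level of the Gas1/Brinp3 cluster was above that of rod-like cells in Muller and at the same level in MullerControl. Trpm1 was found in 37.5% and 3.64% of its cells, and Grm6 in 72.9% and 65.5%. Nyx had 110 and 158 CPM, Gpr179 194 and 247 CPM and Rgs11 157 and 154 CPM there. Gnao1 was lower than in the other ON cone bipolar-like cells, at 504 and 410 CPM against 884 and 805 CPM, and Pcp2 was higher, at 4913 and 4207 CPM against 3157 and 2048 CPM.

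As UMIs of Trpm1 for each UMI of Grm6, a quantity that is compared here only between clusters, the ON cone clusters ranged widely. The Gas1/Brinp3 cluster had 0.495 (0.352 to 0.691) in Muller and 0.0465 (0.0124 to 0.123) in MullerControl. The Areg/Slitrk5 cluster had 0.991 and 0.886, the Sox5/Sec1 cluster 1.56 and 1.57, and the Grin3a/Trank1 cluster 3.06 and 3.19. The 3 rod bipolar-like clusters had 7.31 to 9.26 in Muller and 5.81 to 8.12 in MullerControl. The Irx3/Lrrtm1 cluster had 28.0 (7.40 to 237) in Muller, and in MullerControl, with no Grm6 UMI, an interval from 24.4 upward.

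**Figure D3:**
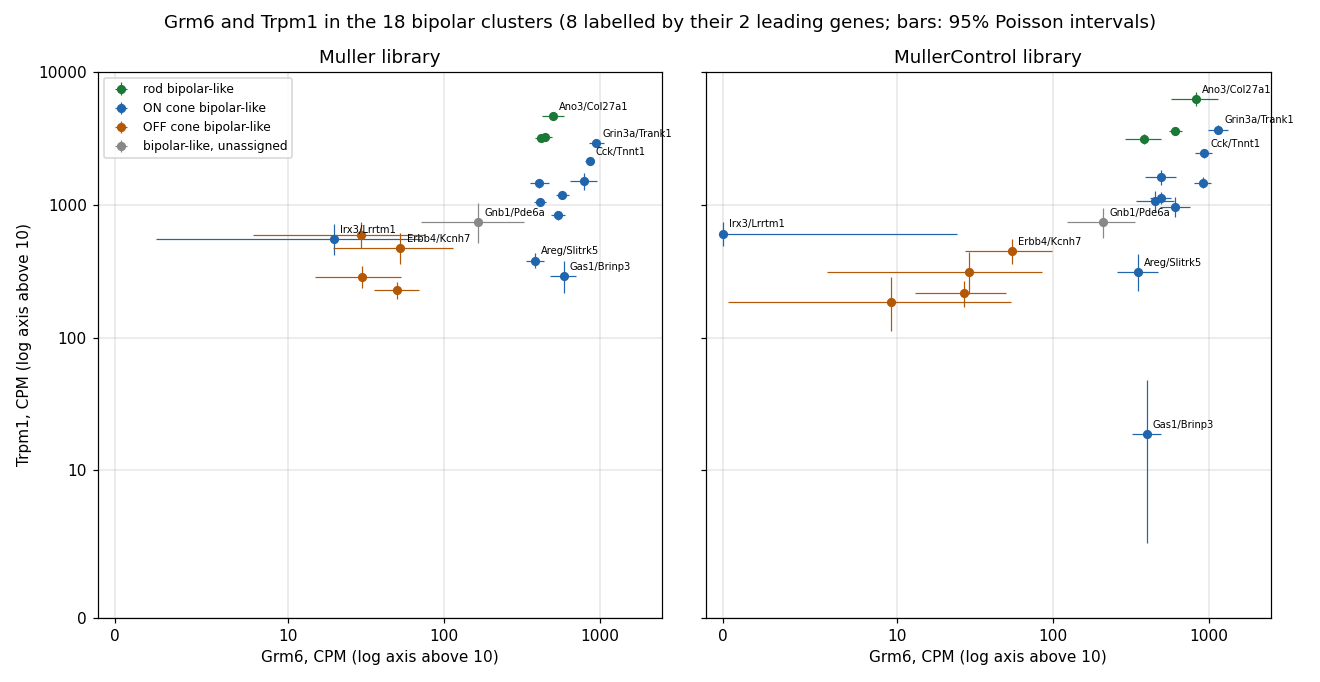
Trpm1 level against Grm6 level (CPM, logarithmic above 10) for the 18 bipolar clusters in the Muller (left) and MullerControl (right) libraries, coloured by class, with 95% Poisson intervals and 8 clusters labelled by their 2 leading genes. The Irx3/Lrrtm1 cluster lies with the OFF clusters on the Grm6 axis, and the Gas1/Brinp3 cluster lies below most ON clusters on the Trpm1 axis, most so in the MullerControl library.

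Other members also differed between ON cone clusters. The clusters led by Cck and Tnnt1 and by Grin3a and Trank1 had much Grm6, at 855 and 933 CPM and 946 and 1153 CPM, and much Trpm1, at 2115 and 2435 CPM and 2896 and 3680 CPM. The same 2 clusters had little Pcp2, at 395 and 474 CPM and 525 and 216 CPM, against 3840 and 2573 CPM and 3391 and 2469 CPM in the other ON cone bipolar-like cells. Pcp2 was highest among ON cone clusters in that led by Areg and Slitrk5, at 6209 and 6499 CPM. That cluster in turn had low Trpm1, at 380 and 313 CPM, and very low Rgs7, at 24.8 CPM in Muller and 0 UMIs in MullerControl. Rgs7 was also low in the cluster led by Sox5 and Sec1, at 25.5 and 7.10 CPM, from 19 UMIs and 1 UMI. Rgs11 was low in the cluster led by Gm32585 and Hpca, at 87.4 and 86.0 CPM, and in that led by Wfdc1 and Gm32585, at 88.3 and 121 CPM.

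OFF cone clusters were not uniform either. The cluster led by Erbb4, a neuregulin receptor, and Kcnh7 had 2894 and 2712 CPM of Pcp2, and the other OFF cone bipolar-like cells had 347 and 118 CPM. Its Grm6 level was 52.5 and 55.0 CPM, on 6 and 11 UMIs. The cluster led by Neto1, an auxiliary subunit of kainate receptors, and Nxph1 had 381 and 204 CPM of Rgs11 against 86.0 and 59.6 CPM in the other OFF cone cells. Both differences lie beyond the counting intervals of the groups compared.

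Some members had other levels in shallow clusters rich in mitochondrial UMIs. The rod bipolar-like cluster led by Ano3 and Col27a1 had a median of 1313.5 and 1474 UMIs and 14.4% and 13.8% mitochondrial UMIs, with 94427 and 98488 CPM of the nuclear transcript Malat1, where the other 2 rod bipolar-like clusters had 39015 to 46003 CPM. In it Pcp2 stood at 4743 and 3116 CPM and Gng13 at 639 and 504 CPM, against 13459 to 15031 CPM and 3776 to 5015 CPM in the other 2 rod clusters of both libraries. Trpm1 stood at 4633 and 6256 CPM and Gpr179 at 626 and 1100 CPM, above the 3124 to 3558 CPM and 332 to 538 CPM of those clusters. The unassigned cluster differed the other way, with 10228 and 2766 CPM of Malat1, 18850 and 19376 CPM of Pcp2 and 741 and 735 CPM of Trpm1. Among ON cone cells, the clusters led by Ptprt and BC046251 and by Grin3a and Trank1 were also shallow, at medians of 1492 and 2011.5 UMIs and 1447 and 1944 UMIs. The OFF cone cluster led by Grik1 and Cacna2d2 was shallow for its class as well. It held 45.6% and 22.0% of OFF cone bipolar-like cells, but 26.8% and 13.3% of their UMIs, in Muller and MullerControl. The part of depth and of Malat1 in these levels was not tested.

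**Figure D4:**
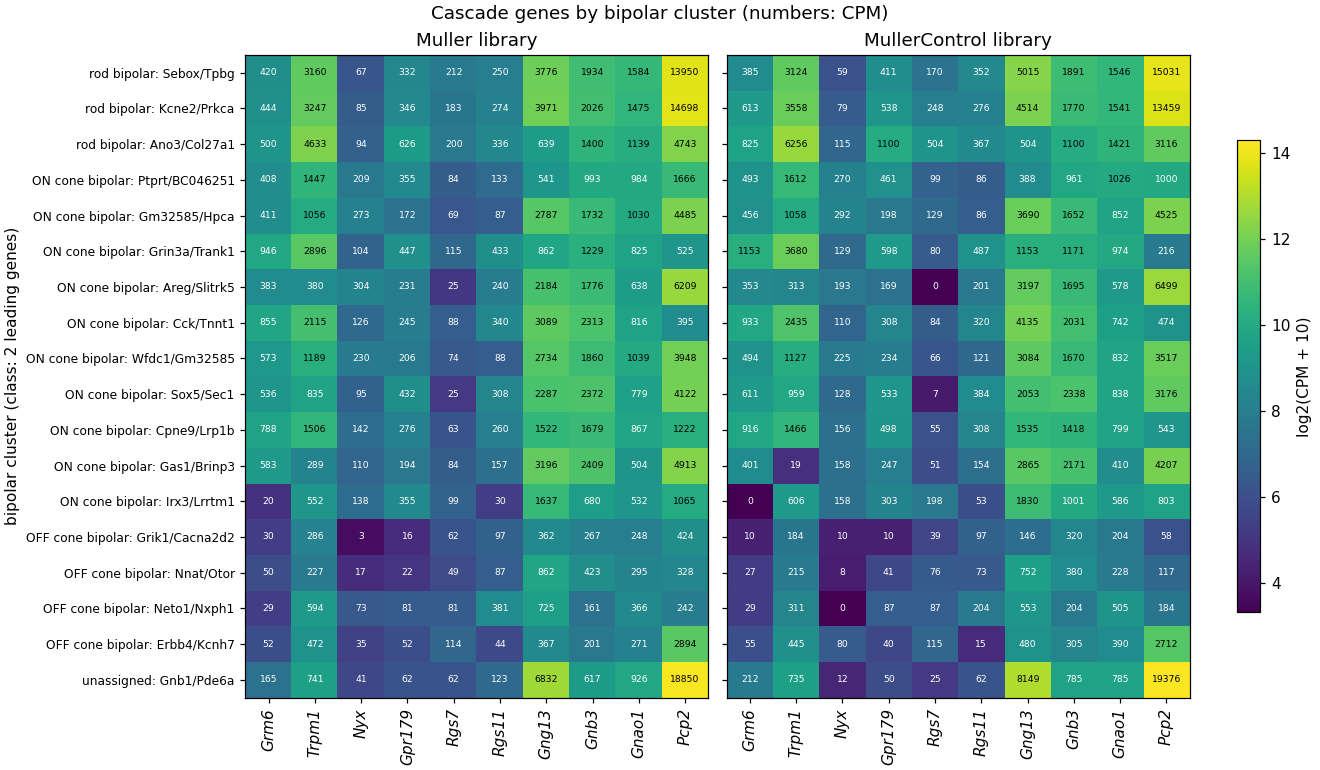
Levels of the 10 genes in the 18 bipolar clusters of the Muller (left) and MullerControl (right) libraries, coloured by log2(CPM + 10) with the CPM printed in each cell. Rows run from rod through ON cone to OFF cone clusters, and the low values of Grm6 in the row Irx3/Lrrtm1 stand out from the other ON cone rows. Trpm1 is lowest among ON cone rows in the row Gas1/Brinp3, far below the next row, Areg/Slitrk5, in MullerControl (18.6 and 313 CPM). In Muller the 2 rows are nearer (289 and 380 CPM).

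Over whole libraries every member had a higher CPM in the Muller library, at 218 against 92.9 CPM for Grm6, 816 against 342 CPM for Trpm1 and 2475 against 992 CPM for Pcp2. The share of all genes that were higher over whole libraries was not computed, so this is a description and not a result about the cascade. Of the UMIs of kept cells, 91.1% and 94.5% of those of Grm6, 71.4% and 63.6% of those of Rgs7, 78.9% and 72.4% of those of Gnao1 and 71.4% and 28.1% of those of Gnb3 lay in bipolar-like cells. Bipolar-like cells made up 29.6% of kept cells in Muller and 10.1% in MullerControl, and the part of this share in the whole-library levels was not tested.

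None of the 10 genes was past 1.5-fold, Muller over MullerControl, in rod bipolar-like, ON cone bipolar-like or OFF cone bipolar-like cells. Of all measured genes, 15.8%, 15.4% and 13.5% were past 1.5-fold in these classes. All measured genes were not matched to the 10 in UMI count, so these shares cannot show whether the 10 differed less than other genes. With the clusters named by marker counts alone, 3 of the 10 were past 1.5-fold in ON cone bipolar-like cells, Gpr179 at a log2 ratio of -0.73, Rgs11 at -0.80 and Pcp2 at 0.83. The share of all genes past 1.5-fold under that naming was not computed. In the classes as first named, the median log2 ratio of the 10 was -0.12, -0.09 and -0.03, beside -0.04, -0.08 and -0.03 for all genes. Gpr179 came nearest in rod bipolar-like cells, with a log2 ratio of -0.54 (-0.70 to -0.37) there and -0.39 (-0.52 to -0.26) in ON cone bipolar-like cells. Grm6 had -0.41 (-0.56 to -0.25) in rod bipolar-like cells and -0.13 (-0.23 to -0.04) in ON cone bipolar-like cells. Trpm1 differed by -0.10 in both ON classes, with intervals from -0.16 to -0.04 in each. Single clusters differed more than the class sums. Trpm1 in the Gas1/Brinp3 cluster had a log2 ratio of 3.66 (2.52 to 5.88), and the other members in ON cone clusters ran from -0.97 for Rgs7 to 1.25 for Pcp2.

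The rod class drew on different clusters in the 2 libraries. The Sebox/Tpbg cluster held 40.3% of rod bipolar-like cells in Muller and 15.7% in MullerControl, and the Kcne2/Prkca cluster held 27.9% and 67.3%. Cluster by cluster, the log2 ratio of Gpr179 ran from -0.84 to -0.33 over the 3 rod clusters, all below 0. That of Grm6 ran from -0.75 to 0.10. With the 3 clusters weighted equally, an alternative added after the data were seen, Gpr179 had -0.65 and Rgs7 -0.63, past 1.5-fold.

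Pcp2 gave different directions in the summed ON and OFF cone classes. It was higher in the Muller library among ON cone bipolar-like cells, with a log2 ratio of 0.49 (0.45 to 0.54), and lower among OFF cone bipolar-like cells, with -0.50 (-0.65 to -0.34). Within clusters it was higher in the Muller library in 7 of the 10 ON cone clusters and in all 4 OFF cone clusters, so the OFF class ran against each of its clusters. The Erbb4/Kcnh7 cluster, with 331 of the OFF cone Pcp2 UMIs in Muller and 542 in MullerControl where the other OFF clusters had 439 and 68, made up 6.17% of OFF cone bipolar-like cells in Muller and 23.0% in MullerControl. The ON cone class also drew on different clusters. Its Gm32585/Hpca cluster, with 4485 and 4525 CPM of Pcp2, held 346 of the 1920 ON cone bipolar-like cells in Muller and 22 of the 557 in MullerControl, and its Cpne9/Lrp1b cluster, with 1222 and 543 CPM, held 48 and 91. With the clusters of each class weighted equally, the log2 ratio of Pcp2 was 0.19 in ON cone and 0.34 in OFF cone bipolar-like cells, so the opposite directions were not seen. In the 2 largest OFF clusters Pcp2 had 424 and 58.2 CPM and 328 and 117 CPM. Rod-like cells had 387 and 50.9 CPM.

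Outside the bipolar classes the cascade genes read much higher in the Muller library. In rod-like cells 9 of the 10 were higher by at least 1.5-fold, beside 14.2% of all genes, and the median log2 ratio of the 10 was 2.29 against 0.06 for all genes. In rod-like cells Grm6 had 28.4 CPM in Muller and 4.69 CPM in MullerControl, which is a log2 ratio of 2.58 (2.11 to 3.12). Trpm1 had 85.8 and 18.6 CPM, and Pcp2 387 and 50.9 CPM. Relative to the combined level of both ON classes of the same library, rod-like cells had a median of 5.88% (2.96% to 15.6% over the 10 genes) in Muller and 0.942% (0.433% to 11.8%) in MullerControl. Gnb3 had the highest share in both. The part of free RNA and of remaining doublets in these counts was not tested.

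In microglia-like cells, which are not known to use the cascade, Grm6 had 25.4 and 1.21 CPM, from 10 UMIs and 1 UMI, and Trpm1 30.5 and 2.43 CPM, from 12 and 2 UMIs. Of the 3 members with at least 20 UMIs there, all 3 were higher by 1.5-fold in the Muller library, beside 11.9% of all genes. In amacrine-like cells 7 of 10 were higher, beside 7.86%, and in cone-like cells 6 of 8 measured, beside 6.96%. In Müller-like cells 5 of 9 measured were higher, beside 6.64%. The 20 UMIs were summed over both libraries, so some members passed only through their Muller counts, and these numbers are a description. Examples are Grm6 in Müller-like cells, with 53 and 2 UMIs, and Nyx in amacrine-like cells, with 57 and 5. OFF cone bipolar-like levels have to be read beside the levels in these other classes. Grm6 in OFF cone cells was 1.52-fold above rod-like cells in Muller and 7.01-fold in MullerControl, and Trpm1 3.49-fold and 15.2-fold. Of the 10 genes, 6 were at least 2-fold higher in OFF cone bipolar-like than in rod-like cells in both libraries, beside 19.3% of all genes.

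**Figure D5:**
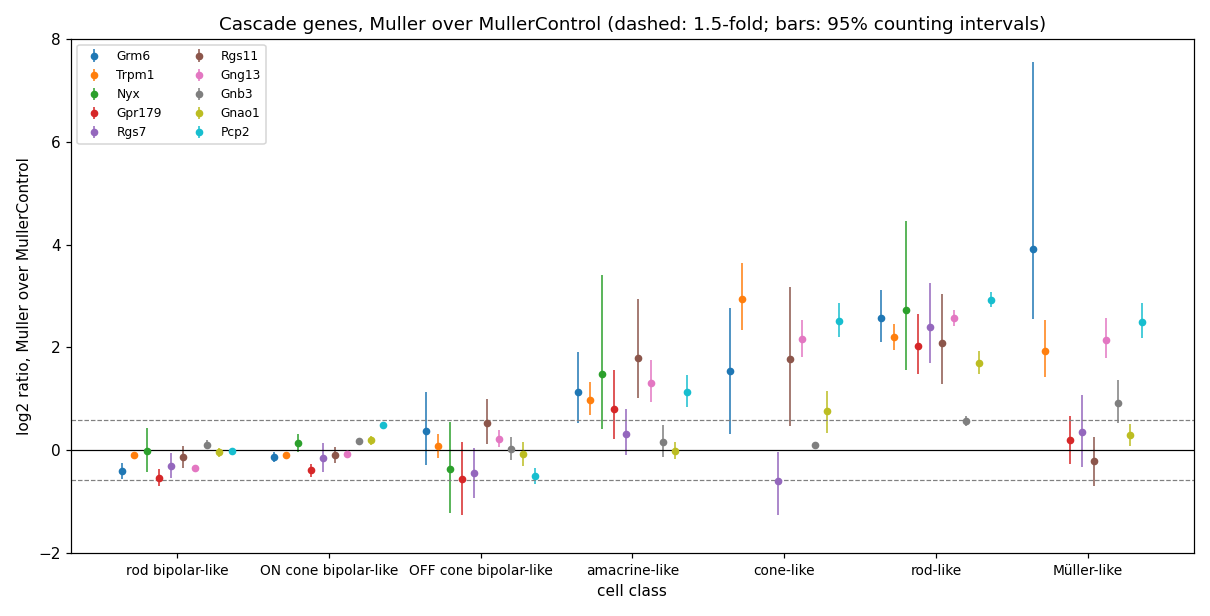
Log2 ratio of each gene, Muller over MullerControl, in 7 cell classes, for genes with at least 20 UMIs in the class, with 95% counting intervals and dashed lines at 1.5-fold. All points of the 3 bipolar classes lie between the dashed lines, while 9 of 10 points of the rod-like class lie above them.

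Some members had levels in other classes that lay within 1.5-fold of each other in the 2 libraries and stood above those of rod-like cells. Gnb3, which is also the beta subunit of the cone transducin, had 3669 and 3441 CPM in cone-like cells. Gnao1, an abundant alpha subunit of many neurons, had 360 and 361 CPM in amacrine-like cells and 210 and 171 CPM in Müller-like cells. Rgs7 had 66.0 and 52.0 CPM in amacrine-like cells, and in cone-like cells it was the 1 member lower in the Muller library by 1.5-fold, at 27.2 and 42.1 CPM, beside 7.24% of all genes. In Müller-like cells Gpr179 had 43.8 and 38.2 CPM and Rgs11 35.6 and 41.5 CPM, with log2 ratios of 0.19 (-0.26 to 0.66) and -0.22 (-0.69 to 0.26). Grm6 in the same Müller-like cells had 24.2 and 1.09 CPM, on 53 and 2 UMIs, so these 2 genes did not follow the receptor gene there. Rgs11 shares its locus with Arhgdig on the opposite strand (729 UMIs in kept cells, beside 3164 of Rgs11), Pcp2 with Pet100 (1131 beside 73748), Gng13 with Chtf18 (206 beside 36544), Gnao1 with 4930488L21Rik (64 beside 15590) and Grm6 with Gm12660 (12 beside 6597). Whether the counting used strand is not given in the sources used here.

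Of the other genes of the pathway, few shared the pattern. Among 14 partners of the ON synapse, 11 were measured, 3 of them at least 2-fold higher in rod bipolar-like than OFF cone bipolar-like cells in both libraries and none lower by that size, beside 4.26% and 10% of all genes. They included Gnb5, the partner subunit of the RGS proteins, at 473 and 558 CPM against 139 and 147 CPM, and Prkca, which had served to name the class. In ON cone over OFF cone bipolar-like cells 1 of 11 was higher, Gnb5, at 481 and 453 CPM, beside 3.19% of all genes. Of the RGS family and its anchors, 2 of 4 measured were higher in ON cone cells, beside the same 3.19%, Gnb5 and Rgs7bp, the membrane anchor of RGS7, at 138 and 141 CPM against 31.9 and 43.9 CPM in OFF cone cells.

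The other metabotropic receptors were little measured, 2 of 7. Grm5 was higher in both ON classes, at 227 and 242 CPM in rod bipolar-like and 208 and 276 CPM in ON cone bipolar-like cells, against 27.5 and 37.5 CPM in OFF cone bipolar-like cells. Grm7 was lower in rod bipolar-like cells, at 7.11 and 1.20 CPM against 42.0 and 45.2 CPM in OFF cone bipolar-like cells. Of 17 other G protein subunits, 9 were measured in the rod over OFF comparison, none higher and 2 lower, Gnb2 and Gng2, beside 4.26% of all genes higher and 10% lower. Gng2 had 3.34 and 1.20 CPM in rod bipolar-like cells and 71.7 and 73.6 CPM in OFF cone bipolar-like cells. Within the TRPM family, Trpm3 went the other way from Trpm1, at 7.53 and 2.41 CPM in rod bipolar-like, 10.2 and 11.7 CPM in ON cone bipolar-like and 224 and 177 CPM in OFF cone bipolar-like cells. Of the ionotropic receptor genes of OFF cells, 4 of 6 were lower in rod bipolar-like cells, beside the same 10%. They included Grik1, which had served to name the OFF cone class, so this count was in part set by the naming. Another was the AMPA receptor subunit Gria2, at 25.1 and 6.02 CPM against 665 and 776 CPM. ON cone bipolar-like cells were not low for Gria2, at 617 and 794 CPM, and 2 of 6 genes, Grik1 and Neto1, both markers that served in naming, were lower there, beside 2.75% of all genes.

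The genes whose level over 16 pairs of class and library was most like the mean of Grm6 and Trpm1 were ranked by the Pearson correlation of log2(CPM + 10) among 12754 genes, members included. The 16 points share libraries and depth, so the values are a description. Isl1 came nearest (r = 0.990), followed by Fam135b (0.973), the bipolar transcription factor Bhlhe23 (0.972) and C130073E24Rik (0.972). Grm5 (0.968), Igfn1 (0.966), Gm30893 (0.962), Trnp1 (0.961), Qpct (0.957) and Hecw1 (0.955) completed the 10. Isl1, Bhlhe23, Igfn1 and Trnp1 were among the naming markers. Of the members, Gng13 (0.972) and Pcp2 (0.970) ranked high, while Rgs7 (0.837) and Gnb3 (0.574) did not, at ranks 164 and 1456.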

How the data were processed

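Single-cell 3' libraries of sorted retinal cells were analysed, 1 per group. Per the file headers, the deposited values are Cell Ranger 4.0.0 output, raw UMI counts for each gene in each barcode. Seurat 4.0.5 and the builds mm10 and GRCh38 are listed in the submitters' processing notes with no role. Deposited barcodes had at least 500 UMIs.

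Barcodes with under 300 genes or over 20% mitochondrial UMIs were dropped, in all 429 in Muller and 905 in MullerControl. Scrublet (scanpy 1.11.5) scored doublets, and the highest-scoring cells, 0.8% for each 1000 barcodes, were removed, 1130 and 866. Its automatic threshold called 2 and 0 cells and did not work. Both libraries were clustered together (2000 variable genes without the members, 30 components, 15 neighbours, Leiden at resolution 1 with leidenalg 0.10.2), and bipolar cells were clustered again. A cluster was named by at least 3 markers 2-fold raised and by its leading genes. Rod bipolar-like clusters raised at least 3 rod bipolar markers over the other bipolar cells, and the rest were ON or OFF by whether Isl1 or Grik1 was higher. This bipolar rule was written after a table of clusters that showed the levels of the 10 genes had been seen. Naming by marker counts alone was added as an alternative. Rebuilt classes may differ from those of the study. No integration was applied. Further tools were scipy 1.17.1 for intervals, scikit-learn 1.9.0, anndata 0.12.19, pandas 2.3.3, numpy 2.4.6, igraph 0.11.9, matplotlib 3.10.9 and Python 3.11.15.

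UMIs were summed per class and library and divided by the class total (CPM), with exact Poisson intervals; shares have Clopper-Pearson intervals. Intervals cover counting error only, at 95%. Log2 ratios had 1 count added to each sum, genes needed 20 UMIs over the groups compared, and the limit for a count of 0 was 3 counts. No p-value was computed. The ratio and interval code was tested on simulated data.

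The 10 genes, the lists, the markers and the size rules were chosen with earlier results of these data known. Named pathway genes were at most 4 per list, with the largest absolute log2 ratio. Alternatives changed doublet removal, the cell filters, resolution, the members in clustering, the gates, the added count, the scaling and the UMI minimum. Gnb3 and Rgs11 had no entry in the promoter table used here. The values of 1 pathway gene are not reported here.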

Additional observations from a re-analysis of the deposited data

Results flagged for a closer look

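For 2 members the ratio of the Muller over the MullerControl library pointed in opposite directions in different bipolar classes, with counting intervals that lay wholly on either side of 0. The differences were not tested, since each group had 1 library, and virus, chance, mouse and sort cannot be told apart.

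Pcp2 had log2 ratios of 0.49 in ON cone bipolar-like and -0.50 in OFF cone bipolar-like cells, a difference of 0.99. The opposite directions were not seen with the clusters of each class weighted equally, which gave 0.19 and 0.34. In the OFF class the sign was opposite to that in each of its 4 clusters, whose log2 ratios ran from 0.10 to 2.65. Gng13 had a log2 ratio of 0.23 (0.06 to 0.39) in OFF cone bipolar-like cells and -0.36 (-0.41 to -0.30) in rod bipolar-like cells, a difference of 0.58. Against ON cone bipolar-like cells, with -0.07 (-0.12 to -0.02), the difference was 0.30, and the ON cone value ran from -0.20 to 0.11 over the alternatives. Gng13 was at 257 and 43.5 CPM in rod-like cells of the Muller and MullerControl libraries. The part of these levels in the ratios of the bipolar classes was not tested.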

How the results depend on the processing

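All 10 members stayed at least 2-fold higher in rod bipolar-like than in OFF cone bipolar-like cells in both libraries under the alternatives run, except with gates set per cell (8), a minimum of 100 UMIs (9) and bipolar clusters named by marker counts alone (6). In ON cone over OFF cone cells 8 or 9 did so, except with that naming (2). The count past 1.5-fold between libraries, 0 in each bipolar class, moved to 1 in rod bipolar-like cells with at most 10% mitochondrial UMIs (Gpr179, log2 -0.62) and to 2 with clusters weighted equally, an alternative added after the data were seen. It moved to 2 in ON cone bipolar-like cells with gates per cell (Gpr179, -0.77, and Pcp2, 0.61), to 3 with clusters named by marker counts alone, also added after the data were seen, and to 1 with the mean of each cell's own CPM (Pcp2, 0.59). In OFF cone bipolar-like cells it moved to 2 without doublet removal and with the automatic Scrublet threshold (Grm6 and Gpr179), to 1 at Leiden resolution 2 (Grm6, 0.64), with mean cell CPM (Nyx, -0.71) and with clusters weighted equally (Rgs11, 0.63), and to 4 with gates per cell (Rgs7, Rgs11, Gng13 and Gnb3, while Grm6 and Nyx had under 20 UMIs). Leaving out the 1 cell with the most UMIs of a gene moved 3 OFF cone values past 1.5-fold, Grm6 to 0.88, Gpr179 to -0.66 and Rgs11 to 0.62. In rod-like cells the count stayed between 6 and 10. Shares of all genes were computed for the main setting only, so the counts under the alternatives have no such share beside them. All 130 values recomputed in rod-like cells lay above 0. In the bipolar classes some values changed sign, among them Pcp2 (-0.56 to 0.34), Gpr179 (-0.66 to 0.57) and Nyx (-1.02 to 0.35) in OFF cone and Rgs7 (-0.63 to 0.08) in rod bipolar-like cells.

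Followed into 6 other clusterings, a check added after the data were seen, the cluster led by Irx3 and Lrrtm1 kept 2 and 0 Grm6 UMIs. Trpm1 in that led by Gas1 and Brinp3 ranged from 176 to 309 CPM (Muller) and from 17.2 to 50.2 CPM (MullerControl). Thinned to 500 instead of 1000 UMIs, at least 3 members were found in 92.3% and 96.2% instead of 99.4% and 100% of rod bipolar-like, 62.8% and 59.4% instead of 93.3% and 90.9% of ON cone and 4.67% and 4.50% instead of 20.9% and 13.0% of OFF cone bipolar-like cells of the Muller and MullerControl libraries. No paired analysis was possible because each group has 1 library. Small clusters, with 35 to 55 cells, limit what depth can show.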
